A study of Danio rerio with 4 samples.

Results

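Ventricular myocardial cells of the embryonic zebrafish heart were compared between 72 and 48 hours post fertilization (hpf). They were chosen by counting transcripts in single cells: a cell that the authors had placed in the Myocardium cluster was taken as ventricular when it held more unique molecular identifiers (UMIs, each 1 captured transcript) of the ventricular myosin heavy chain gene myh7l (ENSDARG00000079782) than of the atrial gene myh6 (ENSDARG00000090637). The rule gave 2275 cells out of 3779 Myocardium cells and 34676 kept cells. Hearts came from untreated embryos of crosses of sqet31Et or sqet33mi59BEt, which are enhancer-trap lines with EGFP in pacemaker regions, to Tg(myl7:mRFP), in which the promoter of the heart myosin light chain gene myl7 drives mRFP (called RFP in the count tables). All 4 libraries thus carried the mRFP transgene and 1 of the 2 EGFP insertions. Each library was made from 1 pool of hearts of 1 line at 1 stage, so each stage had 2 libraries, 1 of each line. Unless the line was used as a block, p-values measure the spread between pools together with that between lines. Throughout, the sqet31Et value of a stage is given before the sqet33mi59BEt value.

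Background helps to place these genes. The zebrafish heart beats from the first day as a linear tube and then forms a single atrium and a single ventricle. Between the stages studied here the ventricular wall begins to form trabeculae while the valves and the outflow tract mature. Force comes from the sarcomere, in which myosin thick filaments pull on actin thin filaments under control of troponin and tropomyosin. Embryonic heart muscle cells still divide, and they carry actins and other proteins that are shared with skeletal or smooth muscle.

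At 72 hpf, the ventricular cells numbered 827 and 483, with 2507275 and 603992 summed UMIs. At 48 hpf, they numbered 683 and 282, with 3020826 and 1267863 summed UMIs. They made up 65.1 and 59.7% of the Myocardium cells at 72 hpf and 58.6 and 52.9% at 48 hpf, a difference of 6.64 percentage points that 4 libraries cannot place beyond an exact two-sided permutation p of 0.333, the smallest that they allow. The share depends on the values that chose the cells. It was 57.0 and 44.1% against 38.3 and 41.8% when at least 2 myh7l UMIs and no myh6 UMI were asked for. Just inside the rule, 64 and 111 cells at 72 hpf and 105 and 39 cells at 48 hpf had only 1 more myh7l UMI than myh6 UMIs. Just outside it, 136 and 119 cells at 72 hpf and 90 and 125 cells at 48 hpf had as many of one as of the other, mostly with neither.

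The genes that chose the cells are given only as a description. In the ventricular cells myh7l stood at 8830 and 9664 CPM (UMIs of the gene per 1000000 UMIs of these cells) at 72 hpf and 10246 and 9184 CPM at 48 hpf. The corresponding myh6 levels were 36.7 and 82.8 CPM, against 195 and 52.8 CPM. A myh6 UMI was held by 42 and 19 of the ventricular cells at 72 hpf and by 157 and 21 at 48 hpf. In Erythrocytes myh7l stood at 60.0 and 532 CPM at 72 hpf and at 2746 and 383 CPM at 48 hpf. The part of free myh7l RNA in the choice of cells was not tested. Genes outside the rule followed the label: irx4a, an Iroquois factor of the ventricle, had 7.98 and 4.97 CPM at 72 hpf and 43.4 and 27.6 CPM at 48 hpf in ventricular cells, whereas atrial cells (more myh6 than myh7l UMIs) had 0 and 0 CPM at 72 hpf and 0.414 and 0 CPM at 48 hpf. The atrial troponin gene tnnc1b stood at 16.8 and 23.2 CPM at 72 hpf and 30.5 and 21.3 CPM at 48 hpf in ventricular cells, and at 1420 and 1127 CPM and 2473 and 2088 CPM in atrial cells. The symbols myh7 and myh7l may be exchanged between gene name sources, so the identifiers define the cells.

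Depth per cell did not follow stage alone. The median ventricular cell held 1908 and 950 UMIs at 72 hpf and 1579 and 3227 UMIs at 48 hpf (exact permutation p = 0.667, two-sided). The median mitochondrial share of UMIs was 19.0 and 11.2% at 72 hpf, above the 4.86 and 10.2% at 48 hpf (exact permutation p = 0.333). The authors kept only barcodes with 200 to 2500 genes, under 30% mitochondrial and under 10% hemoglobin content. The upper gene limit was exceeded by 70 and 3 unannotated barcodes at 72 hpf, against 490 and 895 at 48 hpf, counting only certain barcodes. These otherwise met the other limits, held more myh7l than myh6 UMIs and had at least 1% of UMIs from myl7 and cmlc1. The part of these differences in the gene results was not tested beyond the alternatives given in the closing section.

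To ask which genes changed with stage, UMIs were summed over the ventricular cells of each library and tested across 7980 genes with the edgeR quasi-likelihood test, with p-values adjusted by Benjamini-Hochberg over all of them. At an adjusted p under 0.05, 254 genes (3.18%) were higher and 65 genes (0.815%) were lower at 72 hpf. Both 72 hpf libraries lay above both 48 hpf libraries in 29.3% of the tested genes and below them in 15.7%. CPM values are shares of the captured transcripts of these cells, and log2 values are fitted differences of 72 hpf minus 48 hpf. The genes that fell included actins, heart transcription factors and the mRFP transgene. Those that rose included genes of connective tissue matrix, DNA replication and liver secretion. Leaving out the 72 hpf sqet31Et library raised the count of lower genes to 338, leaving out the 72 hpf sqet33mi59BEt library raised it to 155, and leaving out the 48 hpf sqet33mi59BEt library raised it to 131.

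Among the thin filament genes, 3 of 16 tested fell and 1 rose, with a median log2 difference of -0.76 beside -0.01 over all genes tested. The list median was -0.83 in atrial cells (14 genes) and -1.17 in Erythrocytes (9 genes). The largest fall was that of actc1b, an alpha actin of striated muscle. It had 59.4 and 18.2 CPM at 72 hpf, against 534 and 644 CPM at 48 hpf (log2 -3.90, SE 0.55, adjusted p = 0.00183). Both 72 hpf libraries lay far below both 48 hpf libraries, and at 48 hpf the transcripts came from 255 and 103 cells. In Erythrocytes, cells that should not transcribe muscle actin, actc1b was also lower at 72 hpf (log2 -4.60, adjusted p = 0.00131), with 0 and 7.34 CPM against 138 and 138 CPM, so it counts among the genes marked below as changing alike there.

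The smooth muscle actin gene acta2, which heart muscle cells use transiently in the embryo, fell as well. It had 109 and 131 CPM at 72 hpf and 479 and 379 CPM at 48 hpf (log2 -2.02, SE 0.35, adjusted p = 0.0059). The stages did not overlap. Unlike actc1b, acta2 was not called lower at 72 hpf in Erythrocytes (log2 0.47, adjusted p = 0.977). There it had 21.4 and 64.2 CPM at 72 hpf against 43.2 and 30.6 CPM, lower in sqet31Et and higher in sqet33mi59BEt. These levels rest on few UMIs, since the Erythrocyte sums at 48 hpf held only 115792 and 261168 UMIs. The difference between the 2 cell groups did not pass over all genes (unadjusted p = 0.00142, adjusted p = 0.26). The skeletal actin gene acta1a had 199 and 69.5 CPM at 72 hpf and 451 and 659 CPM at 48 hpf (log2 -2.10, SE 0.52, adjusted p = 0.0448), and was not called with a stricter filter on counts (adjusted p = 0.0757) or with gene-rich barcodes added (adjusted p = 0.119). A further actin gene, ENSDARG00000057911, carries only the human symbol ACTC1. In Erythrocytes it had 0 and 20.2 CPM at 72 hpf and 51.8 and 107 CPM at 48 hpf (log2 -2.59, adjusted p = 0.103). In ventricular cells it had 269 and 171 CPM against 531 and 1022 CPM (log2 -1.94, SE 0.47, adjusted p = 0.0371). Its call was lost without the 48 hpf sqet33mi59BEt library (log2 -1.42, adjusted p = 0.173).

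The gene tpm1, which encodes a tropomyosin, was the only thin filament gene that rose. It had 26.7 and 59.6 CPM at 72 hpf and 12.2 and 10.3 CPM at 48 hpf (log2 1.61, SE 0.40, adjusted p = 0.043). The groups did not overlap, but the call was lost without the 72 hpf sqet33mi59BEt library (adjusted p = 0.107) and without either 48 hpf library (adjusted p = 0.0783 and 0.0906). The tropomyosin gene tpm4a and the troponin T gene tnnt2a, both highly expressed, did not pass, except without the 72 hpf sqet31Et library (adjusted p = 0.0224 and 0.0267). For tnnt2a the values were 7360 and 6121 CPM at 72 hpf and 10667 and 8938 CPM at 48 hpf (log2 -0.69, SE 0.53, adjusted p = 0.576).

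Thick filament genes showed lower values at 72 hpf for 9 of 10 tested, with a median log2 difference of -0.87, but only 2 passed the test. In 8 of the 10 both 72 hpf libraries lay below both 48 hpf libraries, beside 15.7% of all tested genes. The list median was -1.21 in atrial cells (9 genes) and -1.95 in Erythrocytes (7 genes). Without the 72 hpf sqet31Et library, 6 of the thick filament genes and 9 of the thin filament genes were called lower. The gene mybphb, whose product binds myosin, fell to 60.2 and 18.2 CPM at 72 hpf, against 150 and 160 CPM at 48 hpf (log2 -1.95, SE 0.48, adjusted p = 0.0422), a call lost with the stricter filter and with gene-rich barcodes added (adjusted p = 0.073 and 0.0937). The light chain gene myl10 was low throughout, with 1.2 and 1.66 CPM against 12.9 and 9.46 CPM (log2 -3.16, SE 0.65, adjusted p = 0.0161). Its counts were small, with 3 UMIs and 1 UMI at 72 hpf, and the call was lost without the 72 hpf or the 48 hpf sqet31Et library (adjusted p = 0.064 and 0.302).

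The principal light chains of the heart did not pass in this test. The regulatory light chain gene myl7 had 11212 and 10194 CPM at 72 hpf and 23712 and 19300 CPM at 48 hpf (log2 -1.17, SE 0.59, adjusted p = 0.355). Both 48 hpf libraries were higher, and the call depended on the method: DESeq2 gave an adjusted p of 0.0307, scaling by library totals gave 0.0383, and leaving out either 72 hpf library gave 0.00146 or 0.0267. The essential light chain gene cmlc1 (log2 -0.77, adjusted p = 0.583) and the heavy chain gene myh7, with 6529 and 5767 CPM against 9976 and 11257 CPM (log2 -0.95, SE 0.53, adjusted p = 0.413), did not pass either, and both were called lower without the 72 hpf sqet31Et library (adjusted p = 0.0125 for cmlc1 and 0.00741 for myh7).

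The mRFP transgene, whose promoter is that of myl7, did pass. RFP stood at 1080 and 1169 CPM at 72 hpf, against 4354 and 3946 CPM at 48 hpf (log2 -2.06, SE 0.46, adjusted p = 0.0241). The 2 lines were close to each other within each stage. The call was lost without either 48 hpf library (adjusted p = 0.246 and 0.118), and RFP also fell in Erythrocytes (25.7 and 75.2 CPM against 397 and 257 CPM, log2 -2.46, adjusted p = 0.00669). EGFP had 1.2 and 43.0 CPM at 72 hpf and 7.61 and 184 CPM at 48 hpf (log2 -2.84, SE 1.26, adjusted p = 0.291). It was lower at 72 hpf within each line and the stages overlapped across lines. It was called lower without the 72 hpf sqet33mi59BEt library (log2 -6.21, adjusted p = 1.5e-17) and without the 48 hpf sqet31Et library (log2 -3.77, adjusted p = 1.01e-10), fits that compare unequal sets of lines, and with no filter on counts (adjusted p = 1.69e-08). With the line as a block its log2 difference was -2.51 (adjusted p = 0.000387).

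**Figure D1:**
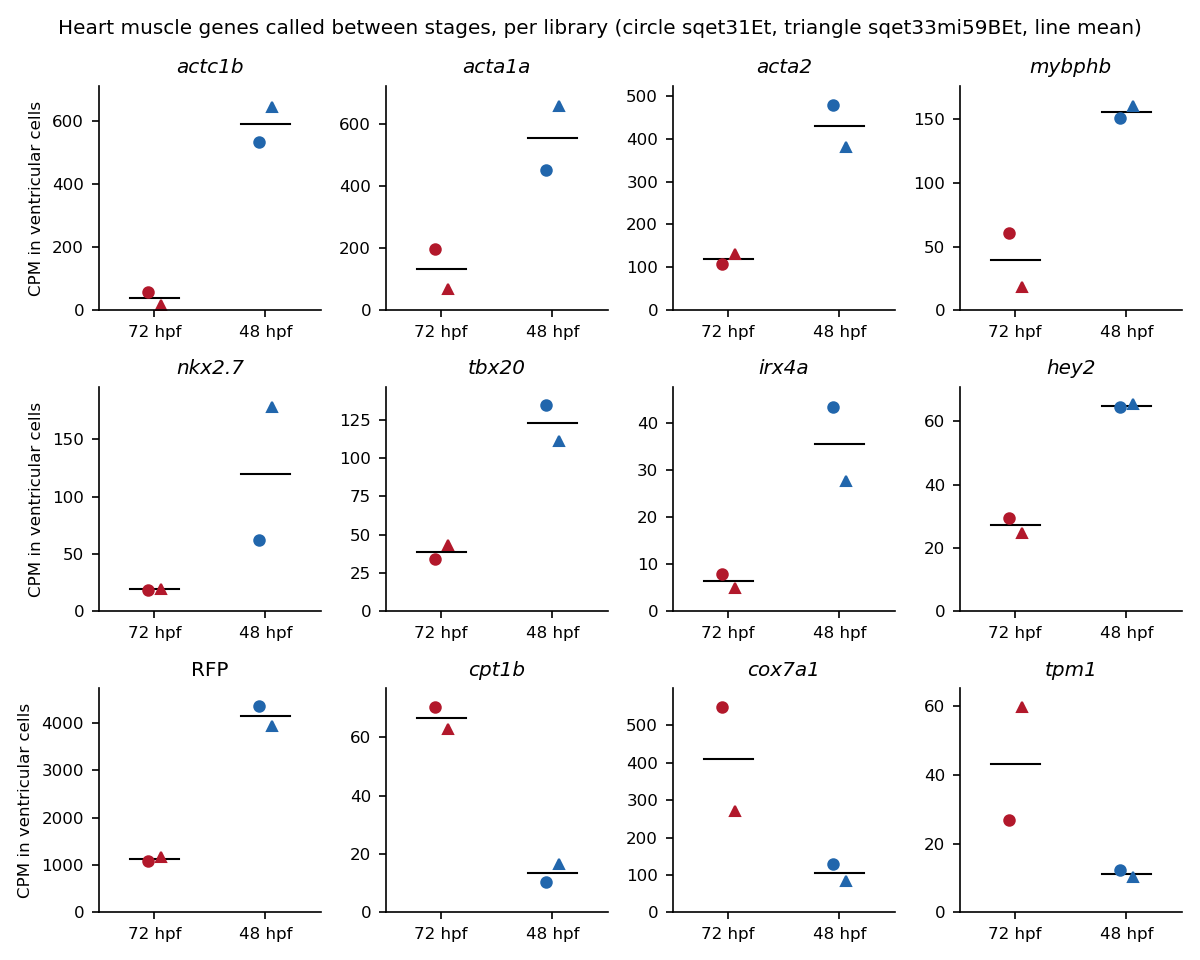
Levels (CPM) in the ventricular cells of each library, 72 hpf on the left and 48 hpf on the right of each panel, for 12 called genes. Circles are sqet31Et, triangles sqet33mi59BEt and lines stage means. The 72 hpf libraries lie below the 48 hpf libraries for actc1b, acta1a, acta2, mybphb, nkx2.7, tbx20, irx4a, hey2 and RFP, and above them for cpt1b, cox7a1 and tpm1.

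Of 23 tested cardiac transcription factor genes, 4 fell and 0 rose, with a median log2 difference of -0.39. The homeobox gene nkx2.7, which acts with nkx2.5 in zebrafish heart formation, had 18.7 and 19.9 CPM at 72 hpf and 61.9 and 178 CPM at 48 hpf (log2 -2.76, SE 0.49, adjusted p = 0.00687). The 2 libraries at 48 hpf differed between themselves, yet both lay above the 72 hpf libraries. The T-box gene tbx20 had 33.9 and 43.0 CPM at 72 hpf, against 134 and 111 CPM (log2 -1.86, SE 0.32, adjusted p = 0.0059). Neither call was lost when any 1 library was left out, but that of tbx20 was lost in cells thinned to 500 UMIs (adjusted p = 0.0634).

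The other 2 factors that fell were also members of the ventricular gene list, of which 2 of 19 fell and 0 rose (5 were called lower without the 72 hpf sqet31Et library, and 1 without each of the other libraries in turn). They were irx4a (log2 -2.42, SE 0.44, adjusted p = 0.00836), with the levels given above, and hey2, a Notch target that represses atrial genes in the ventricle. For hey2 the levels were 29.5 and 24.8 CPM at 72 hpf and 64.6 and 65.5 CPM at 48 hpf (log2 -1.35, SE 0.34, adjusted p = 0.0449). The stages did not overlap for either gene. The hey2 call was lost without the 72 hpf sqet33mi59BEt library (adjusted p = 0.106) and without either 48 hpf library (adjusted p = 0.0935 and 0.0676), and that of irx4a in thinned cells (adjusted p = 0.106). In Erythrocytes irx4a stood at 0 CPM in all 4 libraries.

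Transcription factors at higher levels showed smaller differences. The basic helix-loop-helix gene hand2, needed for ventricle formation, had 231 and 392 CPM at 72 hpf and 338 and 253 CPM at 48 hpf (log2 -0.15, SE 0.35, adjusted p = 0.881), and mef2d had 225 and 248 CPM against 197 and 222 CPM (log2 0.00, SE 0.32, adjusted p = 1). The hand2 libraries of the stages overlapped. Among called genes outside the other cell type lists with a mean of at least 50 CPM in a stage, the homeobox gene ved showed the largest fall, at 5.98 and 9.93 CPM at 72 hpf and 225 and 70.197 CPM at 48 hpf (log2 -4.49, SE 0.57, adjusted p = 0.000942), and at 48 hpf its UMIs came from 158 and 35 cells. It was called lower under every alternative setting tried.

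The remaining largest falls were mostly of genes listed only under a human symbol. The myosin light chain gene ENSDARG00000017441 (human MYL1) had 76.6 and 24.8 CPM at 72 hpf and 339.97 and 201 CPM at 48 hpf (log2 -2.41, SE 0.51, adjusted p = 0.0194). The gene ENSDARG00000053209 (human SMAD6, an inhibitor of BMP signalling) had 18.3 and 31.5 CPM against 76.8 and 99.4 CPM (log2 -2.07, SE 0.35, adjusted p = 0.00504), and ENSDARG00000091253 (human SMYD1, a methyltransferase of striated muscle) had 13.6 and 16.6 CPM against 28.8 and 93.1 CPM (log2 -2.15, SE 0.52, adjusted p = 0.0395, and -1.14 with adjusted p = 0.225 without the 48 hpf sqet33mi59BEt library). In none of these did the stages overlap. With gene-rich barcodes added, the calls of ENSDARG00000017441 and ENSDARG00000091253 were lost (adjusted p = 0.104 and 0.0718). That of ENSDARG00000053209 was lost in cells thinned to 500 UMIs (adjusted p = 0.193). For the thymosin gene tmsb, the fall (log2 -3.72, adjusted p = 0.007) rested in part on single cells, since 76.3% of its UMIs in the 48 hpf sqet33mi59BEt library came from 1 cell. With gene-rich barcodes added tmsb was not called (log2 -1.04, adjusted p = 0.301), and it changed alike in Erythrocytes.

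Most other parts of the contractile machinery did not pass. Over the Z disc and M band list the median log2 difference was -0.29, beside 0.06 in atrial cells (25 genes) and -1.06 in Erythrocytes (15 genes). Of the 27 tested genes of this list 1 fell and 0 rose. The gene that fell, mustn1b, encodes a small nuclear protein of striated muscle and not a Z disc or M band part. It had 280 and 272 CPM at 72 hpf and 647 and 767 CPM at 48 hpf (log2 -1.52, SE 0.37, adjusted p = 0.0402), a call lost without either 48 hpf library (adjusted p = 0.159 and 0.195). The LIM domain gene fhl2a, of the Z disc, had 453 and 454 CPM against 1134 and 1033 CPM with no overlap (log2 -1.42, adjusted p = 0.065), and was called in DESeq2 (adjusted p = 0.00232) and without either 72 hpf library (adjusted p = 0.0015 and 0.013). Of this list 6 of 26 genes were called lower without the 72 hpf sqet31Et library, and 3 of 27 without the 72 hpf sqet33mi59BEt library. The titin gene ttn.2 overlapped between stages, with 6342 and 8929 CPM against 5841 and 9290 CPM (log2 -0.19, SE 0.52, adjusted p = 0.897). None of 21 calcium and ion handling genes passed, nor did any of 31 citric acid cycle and energy transfer genes, 24 iron, stress and antioxidant genes or 12 cytoskeleton genes of non-muscle cells. With the line as a block 1 gene of each of these lists was called, lower in the calcium and citric acid lists and higher in the iron and cytoskeleton lists. Without the 72 hpf sqet31Et library, 11 of 31 citric acid cycle genes and 3 of 19 calcium genes were called lower, 3 of 22 iron and stress genes higher and 1 lower, and 1 of 12 cytoskeleton genes higher and 2 lower.

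None of 3 tested natriuretic peptide genes, which encode hormones released by stretched heart muscle, passed. The best known, nppa, had 2838 and 2268 CPM at 72 hpf and 5870 and 9335 CPM at 48 hpf (log2 -1.72, SE 0.53, adjusted p = 0.11). The stages did not overlap, and other settings called it: the adjusted p was 0.000868 in DESeq2, 0.00165 with library totals, 0.0122 in cells thinned to 500 UMIs, and 3.39e-05 or 0.000515 without the 72 hpf sqet31Et or sqet33mi59BEt library. Its neighbour nppb overlapped, with 1230 and 836 CPM against 583 and 2631 CPM (log2 -0.78, SE 0.62, adjusted p = 0.589), and without the 48 hpf sqet33mi59BEt library its difference was positive (log2 0.67). All 9 tested genes of the atrial list, nppa included, had negative differences in ventricular cells, with a median log2 of -1.21. The median of the same 9 genes was -0.83 in atrial cells, and that of the 4 tested in Erythrocytes was -0.93. In ventricular cells 1 of the 9, mybphb, passed. The count of called genes was 6 without the 72 hpf sqet31Et library, 4 without either sqet33mi59BEt library, 3 in DESeq2 or with library totals, and 0 with the stricter filter.

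The muscle isoform of carnitine palmitoyltransferase, cpt1b, admits long fatty acids into mitochondria. It was the only 1 of 23 fatty acid oxidation genes that rose, and 0 fell, beside 3.18% of all tested genes called higher. It had 70.196 and 62.9 CPM at 72 hpf, against 10.3 and 16.6 CPM at 48 hpf (log2 2.23, SE 0.39, adjusted p = 0.00597). Its UMIs came from 129 and 33 cells at 72 hpf and from 27 and 19 cells at 48 hpf, and in Erythrocytes cpt1b stood at 0 and 1.83 CPM against 0 and 0 CPM. The call was kept without each library in turn, and was lost in cells thinned to 500 UMIs (log2 1.79, adjusted p = 0.254).

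Of 67 nuclear genes of the respiratory chain and ATP synthase 1 rose and 0 fell, beside 3.18% of all tested genes called higher. The gene that rose was cox7a1, which in mammals encodes the heart and muscle form of a cytochrome c oxidase subunit. It had 548 and 272 CPM at 72 hpf and 129 and 82.8 CPM at 48 hpf (log2 1.85, SE 0.46, adjusted p = 0.0427). Both 72 hpf libraries were higher, but the call was lost without the 72 hpf sqet31Et library (log2 0.93, adjusted p = 0.117) and without the 48 hpf sqet33mi59BEt library (adjusted p = 0.183). Of the other respiratory genes most leaned the other way, so that 63 of 67 had a negative difference and the median was -0.50. Glycolysis genes leaned the same way, with 0 of 18 called, 17 negative and a median of -0.62. Without the 72 hpf sqet31Et library, 29 of the 67 respiratory and 7 of the 18 glycolysis genes were called lower. The 13 mitochondrially encoded genes all had positive differences with a median of 0.57, none passed, and the same 13 genes had medians of 1.43 in Erythrocytes and 1.79 in Endothelial cells, where 5.82% of 12451 tested genes were called higher and 2.65% lower. Without the 48 hpf sqet31Et library, whose ventricular cells had the lowest mitochondrial share, only 6 of the 13 were positive and the median was -0.08. Without the 72 hpf sqet33mi59BEt library 3 of the 13 were called higher, and 2 without the 48 hpf sqet33mi59BEt library.

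**Figure D2:**
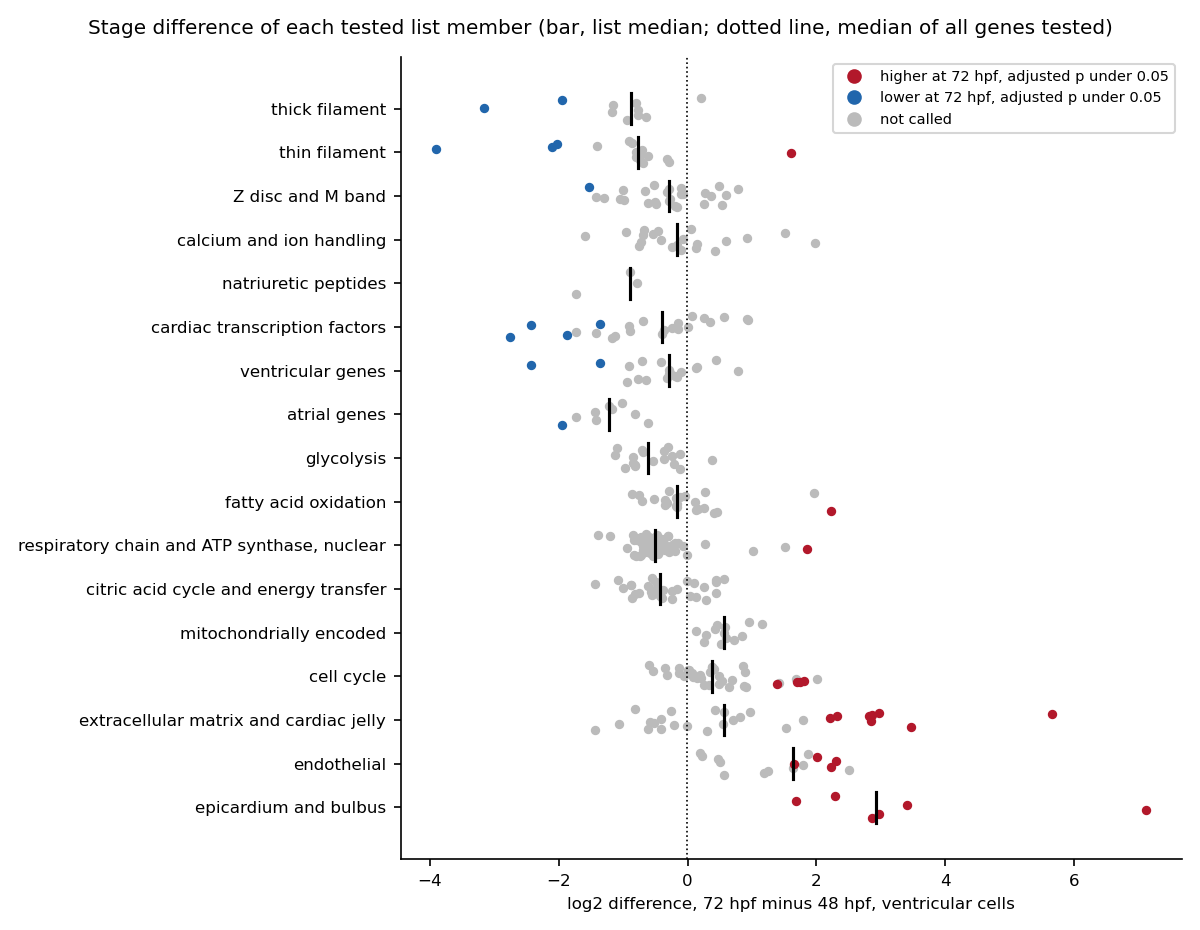
Fitted log2 difference (72 hpf minus 48 hpf) in ventricular cells of every tested member of 17 gene lists, with the list median as a bar and the median of all genes as a dotted line. Points called at an adjusted p under 0.05 lie on the lower side among transcription factors (4 of 23) and on the higher side for matrix genes (8 of 28) and epicardium and bulbus genes (6 of 6). The shares of matrix genes and of epicardium and bulbus genes are partly set by the count filter. Genes near 0 at 48 hpf passed it only through the 72 hpf libraries.

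Cell cycle genes rose in part. Of 37 tested, 4 rose and 0 fell, with a median log2 difference of 0.38. The members that passed were mcm2, mcm4 and mcm5, subunits of the helicase that opens DNA for replication, and tyms, which makes thymidylate and was named after its values were seen. For mcm5 the levels were 36.7 and 53.0 CPM at 72 hpf and 11.3 and 12.6 CPM at 48 hpf (log2 1.71, SE 0.36, adjusted p = 0.0176), and for mcm2 39.9 and 49.7 CPM against 14.6 and 15.8 CPM (log2 1.38, SE 0.34, adjusted p = 0.0439). The stages did not overlap for either. The mcm5 call was lost without the 48 hpf sqet31Et library (adjusted p = 0.124), the mcm4 call without the 48 hpf sqet33mi59BEt library (adjusted p = 0.0661), and the mcm2 call without the 72 hpf sqet31Et library or either 48 hpf library (adjusted p = 0.0774, 0.272 and 0.119). The tyms call was lost without either sqet31Et library (adjusted p = 0.0797 for 72 hpf and 0.302 for 48 hpf). DESeq2 called none of the 4 (adjusted p = 0.387 for mcm2, 0.264 for mcm4, 0.162 for mcm5 and 0.464 for tyms).

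The summed cell cycle level did not separate the stages. It was 20.04 and 30.4 UMIs per 10000 UMIs at 72 hpf and 18.7 and 20.7 at 48 hpf, a difference of 5.50 (exact permutation p = 0.667, two-sided). After every cell was thinned to 500 UMIs the levels were 26.9 and 35.4 against 35.6 and 34.5, and the difference took the opposite sign, -3.89. In thinned cells 0 of 17 testable cell cycle genes passed and the median was -0.17.

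**Figure D3:**
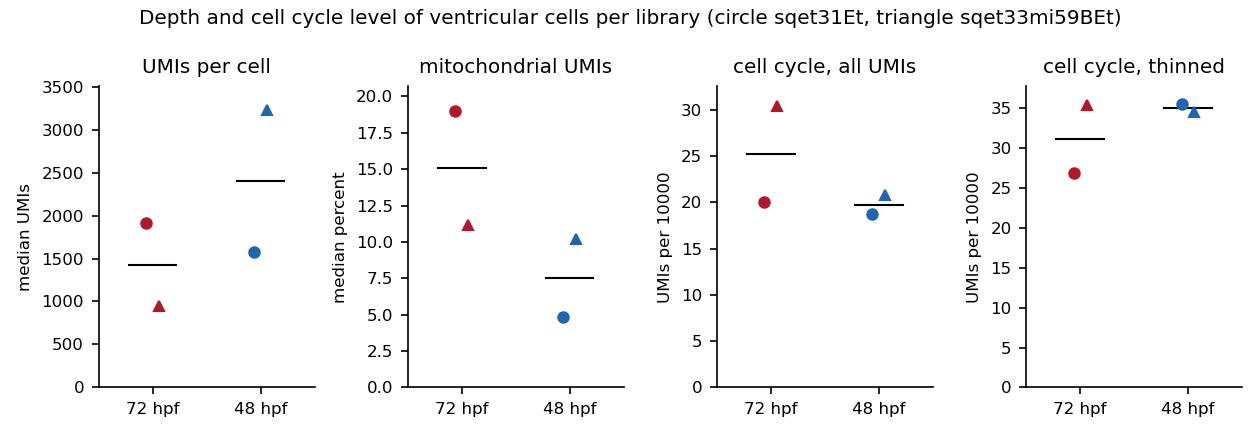
Median UMIs per ventricular cell, median mitochondrial percent, and summed cell cycle UMIs per 10000 UMIs before and after thinning to 500 UMIs per cell, with 72 hpf left of 48 hpf, circles for sqet31Et, triangles for sqet33mi59BEt and lines for stage means. The mean cell cycle level is higher at 72 hpf before thinning (25.2 against 19.7) and lower after it.

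Lists of signalling and regulatory genes held 1 call each, beside 3.18% of all tested genes called higher. Of 21 genes linked to trabeculation 1 rose and 0 fell, namely dll4, a Notch ligand that is usually a gene of the endothelium. It had 19.1 and 44.7 CPM at 72 hpf and 6.29 and 3.15 CPM at 48 hpf (log2 2.31, SE 0.49, adjusted p = 0.019, and 0.0854 in DESeq2), and its level in Erythrocytes was not higher at 72 hpf (34.3 and 22.02 CPM against 51.8 and 49.8 CPM). The stress-responsive factor gene cebpd was the only 1 of 40 heat shock and early response genes that rose, and 0 fell, with 299 and 290 CPM against 62.9 and 113 CPM (log2 1.59, SE 0.37, adjusted p = 0.0329). It was not called without the 48 hpf sqet31Et library (adjusted p = 0.43), and in that list 5 genes were called lower without the 72 hpf sqet31Et library and 4 higher without the 72 hpf sqet33mi59BEt library. Of 35 embryonic chromatin and progenitor genes 1 rose and 0 fell. It was marcksl1b, which encodes a regulator of actin at the membrane. It had 231 and 248 CPM against 99.3 and 76.5 CPM (log2 1.27, SE 0.32, adjusted p = 0.0489) and lost its call without the 72 hpf sqet31Et library or either 48 hpf library (adjusted p = 0.0587, 0.218 and 0.395).

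Extracellular matrix genes gave the largest group of rises among the heart lists, with 8 of 28 tested higher and 0 lower. Over all tested genes 3.18% were higher. The list median was a log2 difference of 0.56. Genes near 0 at 48 hpf passed the count filter only through the 72 hpf libraries, so this share is partly set by the filter. With no filter on counts 11 of 33 were called higher and 1 lower. The collagen gene col1a2 had 98.1 and 111 CPM at 72 hpf and 12.9 and 13.4 CPM at 48 hpf (log2 2.82, SE 0.34, adjusted p = 0.000699). The libraries of a stage were close together, and the UMIs came from 168 and 55 cells at 72 hpf and 36 and 12 cells at 48 hpf. The collagen gene col5a1 had 65.8 and 129 CPM against 15.6 and 17.4 CPM (log2 2.32, SE 0.36, adjusted p = 0.00316). The fibronectin gene fn1b, which encodes an adhesive protein of the cardiac jelly, had 25.9 and 61.3 CPM against 3.97 and 1.58 CPM (log2 3.46, SE 0.51, adjusted p = 0.0026). The stages were apart for both.

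The elastic fibre gene fbln5 had 46.7 and 34.8 CPM at 72 hpf and 5.96 and 3.94 CPM at 48 hpf (log2 2.87, SE 0.44, adjusted p = 0.00322). The periostin gene postna, of connective tissue and valves, had 28.3 and 109 CPM against 0 and 3.15 CPM (log2 5.65, SE 0.88, adjusted p = 0.00333). Both changed alike in Erythrocytes, and DESeq2 did not call postna (adjusted p = 0.36). The other 3, named after their values were seen, were col1a1a (98.1 and 103 CPM against 23.5 and 14.2 CPM), nid1a, a basement membrane gene (6.78 and 16.6 CPM against 0.993 and 1.58 CPM), and postnb (24.3 and 36.4 CPM against 3.31 and 3.15 CPM), with adjusted p of 0.00405, 0.0437 and 0.00316. The nid1a call was lost without the 72 hpf sqet33mi59BEt or the 48 hpf sqet31Et library (adjusted p = 0.227 and 0.38).

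Markers of other heart cells moved with these genes. All 6 tested genes of the epicardium and bulbus list rose, and 4 further matched genes were too low to test. Genes near 0 at 48 hpf passed the count filter only through the 72 hpf libraries, so this share is partly set by the filter. With no filter on counts 6 of 10 were called higher, in DESeq2 4 of 10, and in cells thinned to 500 UMIs 0 of 2. The summed level of the 10 matched genes was 139 and 174 CPM at 72 hpf and 23.5 and 17.4 CPM at 48 hpf. Of the 6, fbln5 and postnb also stand in the matrix list, and the others were tbx18 and aldh1a2, a transcription factor and a retinoic acid enzyme of the epicardium, mylka, a myosin kinase of smooth muscle, and elnb. For tbx18 the levels were 19.1 and 24.8 CPM against 2.65 and 0 CPM (adjusted p = 0.00976). The gene elnb is the elastin gene of the bulbus arteriosus. It had 9.17 and 11.6 CPM at 72 hpf and no UMI in either 48 hpf library, which is at least 13.8-fold higher against a floor of 3 UMIs over both libraries. Of 9 outflow and atrioventricular genes 2 rose (fbln5 and elnb) and 1 fell (acta2). Of 15 tested endothelial genes 4 rose and 0 fell, and the summed level of the 20 matched genes was 485 and 753 CPM, against 170 and 264 CPM. The called members were clec14a, egfl7, ecscr and sox7, with 52.7 and 106 CPM of clec14a against 9.27 and 20.5 CPM (log2 2.23, SE 0.43, adjusted p = 0.0108). Without the 48 hpf sqet31Et library clec14a and egfl7 were not called (adjusted p = 0.0635 and 0.2), nor were aldh1a2 and mylka (adjusted p = 0.137 and 0.356). DESeq2 did not call aldh1a2, mylka or egfl7 either (adjusted p = 0.37, 0.525 and 0.222). The aldh1a2 call also failed with the stricter filter, strict membership and gene-rich barcodes added (adjusted p = 0.0592, 0.0935 and 0.0505). The mylka and egfl7 calls were also lost without the 72 hpf sqet31Et library. Those of aldh1a2 and mylka were lost without the 48 hpf sqet33mi59BEt library, and that of aldh1a2 without the 72 hpf sqet33mi59BEt library. In cells thinned to 500 UMIs, 0 of 7 testable endothelial genes passed. In Erythrocytes col1a2 was higher at 72 hpf too, without passing (313 and 253 CPM against 155 and 107 CPM, log2 1.33, adjusted p = 0.166), and in atrial cells it rose (log2 2.72, adjusted p = 0.00814). The part of these cells or of their free RNA in the matrix rises was not tested further.

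Genes of organs outside the heart made up the largest rises. Of 18 tested liver and yolk genes 17 rose and 0 fell, and the summed level of the 25 matched genes was 1883 and 4384 CPM at 72 hpf, against 47.7 and 46.5 CPM at 48 hpf. Here too genes near 0 at 48 hpf passed the count filter only through the 72 hpf libraries. With no filter on counts 18 of 24 were called higher. The liver fatty acid binding protein gene fabp10a had 182 and 280 CPM at 72 hpf in ventricular cells and no UMI at 48 hpf, which is at least 287-fold higher. Its UMIs were spread over 326 and 134 cells, and Erythrocytes had 364 and 473 CPM at 72 hpf and 8.64 and 0 CPM at 48 hpf. The apolipoprotein gene apoa2 had 659 and 1897 CPM against 13.6 and 14.2 CPM (log2 6.25, SE 0.54, adjusted p = 0.0001), and 1175 and 3697 CPM against 60.5 and 42.1 CPM in Erythrocytes. Of 8 tested pancreas and gut genes 5 rose and 0 fell, a share that the count filter partly set in the same way. With no filter on counts 10 of 13 were called higher. Among the 5 was the insulin gene ins, with 304 and 1677 CPM against 114 and 25.2 CPM (log2 3.49, SE 0.73, adjusted p = 0.0176). The ins call was lost in DESeq2 (adjusted p = 0.198) and with gene-rich barcodes added (adjusted p = 0.0578). Apart from postna, the 12 largest rises among genes outside the other cell type lists with a mean of at least 50 CPM held genes such as ctrb.1, a digestive enzyme gene, hamp, the iron hormone gene of the liver, and c3a.1, a complement gene.

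Lens and skeletal muscle genes were the counterpart among the falls. All 6 tested crystallin genes fell, and the other matched lens genes were too low to test. Genes at or near 0 at 72 hpf passed the count filter only through the 48 hpf libraries, so this share is partly set by the filter. With no filter on counts 10 of 12 were called lower. The summed level over the 13 matched genes was 0.798 and 0 CPM at 72 hpf and 296 and 86.8 CPM at 48 hpf. Much of it lay in single cells: 77 of the 130 cryba4 UMIs of the 48 hpf sqet31Et library came from 1 cell. At 48 hpf cryba4 stood at 43.0 and 6.31 CPM in ventricular cells, against 812 and 341 CPM in Erythrocytes. Of 4 tested skeletal muscle genes 2 fell, atp2a1 and myhz2. Both had no UMI at 72 hpf and passed the count filter only through the 48 hpf libraries. With no filter on counts 2 of 10 skeletal muscle genes were called lower. With gene-rich barcodes added, 0 of 6 crystallins and 0 of 4 skeletal muscle genes were called. In addition, 48 of the 57 myhz2 UMIs of the 48 hpf sqet31Et library came from 1 cell.

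Among the remaining lists of other cells, 4 of 18 epidermis and fibroblast genes rose and 0 fell (9 rose without the 72 hpf sqet31Et library, and 0 of 21 with gene-rich barcodes added), 1 of 4 hatching gland genes fell and 0 rose, and 0 of 5 neural genes and 0 of 1 leukocyte gene passed. Of 8 erythrocyte genes, the nuclear factor gene hemgn rose (9.57 and 91.1 CPM against 0.662 and 3.15 CPM) and the embryonic globin gene hbbe3 fell (0 and 13.2 CPM against 72.5 and 107 CPM), both alike in Erythrocytes. The hbbe3 call was lost in DESeq2 (adjusted p = 0.773) and with gene-rich barcodes added (adjusted p = 0.0664). Without the 72 hpf sqet31Et library 7 of 10 erythrocyte genes were called higher, and without the 72 hpf sqet33mi59BEt library 4 of 8 were called lower and the list median was -1.64, beside 0.78 with all libraries. Among endothelial and epicardial genes no matched gene was at 0 in all libraries of the ventricular cells. Among those of skeletal muscle myhz1.1, myha and pvalb1 were, and among those of the lens bfsp1 was.

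The comparison with Erythrocytes was made to mark genes whose change may be that of RNA free in the suspension. The authors' limit of 10% hemoglobin content also held for the cells annotated as Erythrocytes. In Erythrocytes 52 of 2647 tested genes (1.96%) were higher and 42 (1.59%) were lower at 72 hpf. Of the 254 ventricular genes that were higher, 112 could be tested in Erythrocytes and 37 changed alike, that is, in the same direction at an adjusted p under 0.05. Of the 65 that were lower, 22 could be tested and 19 changed alike. Among the genes described above these are actc1b, RFP, tmsb, fbln5, postna, hamp, ctrb.1, apoa2, fabp10a, hemgn, hbbe3 and the 6 crystallins. The genes acta2, ENSDARG00000057911, dll4, marcksl1b, cebpd, col1a2, col5a1, mcm2, mcm4 and mcm5 were tested there and were not marked. A wider mark asked for the same direction and a log2 difference at least 0.5 times as large, without a test. It held for 56 of the 112 higher and 21 of the 22 lower genes, and for 2 of the called cell cycle genes. Among the lower genes it held for the ACTC1-named actin ENSDARG00000057911. The sign in Erythrocytes was the same for 97 of the 112, whose median log2 there was 1.34, and for 21 of the 22. The genes nkx2.7, tbx20, irx4a, hey2, cpt1b, cox7a1, tpm1, mybphb, mustn1b and acta1a were too low in Erythrocytes to be tested, so no mark could be set for them either way.

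A direct test of the difference between the 2 cell groups called few genes. Whether few genes differed or the test missed them was not tested. Of 5879 genes 1 had a stage difference that was higher in ventricular cells than in Erythrocytes (0.0170%) and 1 had one that was lower (0.0170%), by the edgeR quasi-likelihood test, with 258 and 211 genes at an unadjusted p under 0.05. Against Endothelial cells, a larger group, the same test called 1.90% of 11013 genes higher and 1.39% lower. The gene with the lower difference, ENSDARG00000057206 (listed under the human symbol NMT1, an enzyme that attaches myristate to proteins), had 16.4 and 16.6 CPM at 72 hpf and 70.5 and 39.4 CPM at 48 hpf in ventricular cells. In Erythrocytes it had 60.0 and 36.7 CPM at 72 hpf and 8.64 and 7.66 CPM at 48 hpf, the opposite order. The Erythrocyte sums at 48 hpf held only 115792 and 261168 UMIs, so these 48 hpf levels rest on very few UMIs of the gene. The difference was not called without the 72 hpf sqet31Et library (adjusted p = 0.319).

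**Figure D4:**
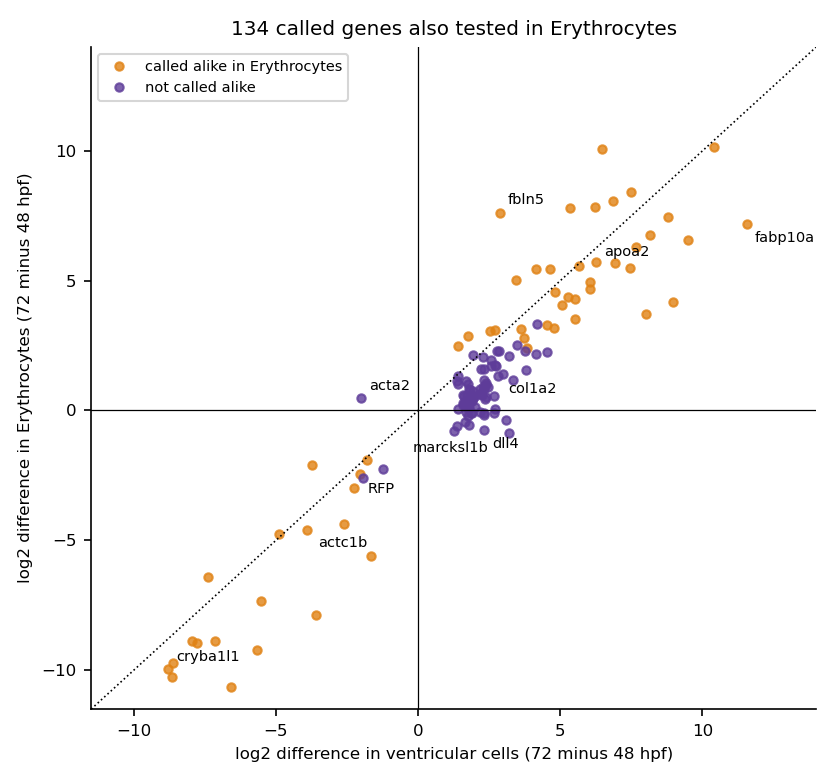
Fitted log2 difference (72 hpf minus 48 hpf) in ventricular cells (x axis) and in Erythrocytes (y axis) for the 134 called genes that could be tested in both, with the dotted line marking equal differences. The 56 genes called alike are orange and the others purple. Liver genes such as fabp10a lie high in both and crystallins low in both, while acta2 is low on the x axis only. Values of genes at 0 in a stage depend on the fit and are no bounds.

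To compare the stage differences of the chambers, the same test was applied to the interaction of stage with chamber, using the ventricular and the atrial sums of each library. Of 7578 genes, 53 (0.699%) had a more positive and 121 (1.60%) a more negative stage difference in ventricular than in atrial cells. In atrial cells by themselves 3.80% of 5104 tested genes were called higher and 0.980% lower at 72 hpf. The smallest p among the more negative differences belonged to genes of small heat shock proteins and of Z disc and actin-binding proteins. The small heat shock gene hspb9l had 300 and 442 CPM at 72 hpf and 313 and 840 CPM at 48 hpf in ventricular cells. In atrial cells it had 230 and 502 CPM at 72 hpf and 7.45 and 24.2 CPM at 48 hpf (interaction log2 -5.30, SE 0.29, adjusted p = 3.45e-13). The stages overlapped in the ventricle and lay far apart in the atrium.

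The related gene hspb9 had 25.1 and 43.0 CPM at 72 hpf and 44.4 and 115 CPM at 48 hpf in ventricular cells, beside 264 and 540 CPM and 4.14 and 64.6 CPM in atrial cells (interaction log2 -5.63, adjusted p = 3.01e-10). The telethonin gene tcap, which caps titin at the Z disc, had 267 and 157 CPM at 72 hpf and 76.5 and 196 CPM at 48 hpf in ventricular cells, beside 396 and 135 CPM and 7.45 and 21.5 CPM in atrial cells (interaction log2 -3.76, adjusted p = 6.3e-09). Both rose in the atrium (adjusted p = 0.0184 for hspb9 and 0.00191 for tcap). In the ventricle neither was called (log2 -1.46, adjusted p = 0.107 for hspb9 and 0.54, adjusted p = 0.634 for tcap). With strict membership hspb9 was called lower there (log2 -1.83, adjusted p = 0.0289), as it was without the 72 hpf sqet33mi59BEt library, without the 48 hpf sqet31Et library, with no filter on counts and with the line as a block (adjusted p = 0.00615, 0.00129, 0.00664 and 0.0378). The filamin gene flnca (interaction log2 -2.70, adjusted p = 3.01e-10) and the Xin gene xirp1 (-1.99, adjusted p = 1.46e-08), both of actin-binding proteins of the muscle cell, followed the same order of levels. Over the 40 heat shock and early response genes, the median log2 stage difference was -0.05 in ventricular cells (0.11 when scaled by library totals) and 0.86 over the 38 that were tested in atrial cells.

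Some ventricular falls were larger than those of the atrium. The interaction was -1.99 on the log2 scale for actc1b (adjusted p = 0.00513), which in atrial cells had 60.0 and 30.9 CPM at 72 hpf and 231 and 88.8 CPM at 48 hpf. It was -2.13 for the ACTC1-named actin ENSDARG00000057911 (adjusted p = 1.69e-08), with 546 and 428 CPM in atrial cells at 72 hpf and 307 and 527 CPM at 48 hpf. It was -1.10 for nppa (adjusted p = 0.00013), with 5073 and 6664 CPM against 7058 and 10706 CPM in atrial cells. For acta2, nkx2.7 and tbx20 the difference between chambers did not pass (adjusted p = 0.183, 0.894 and 0.976), and the atrial log2 values were -2.87, -2.66 and -1.71.

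In the other direction, tpm1 was higher at 72 hpf in ventricular cells and not in atrial cells, where it had 20.4 and 19.3 CPM against 47.2 and 16.1 CPM (interaction log2 2.34, SE 0.47, adjusted p = 0.00373). The respiratory gene cox7a1 differed as well (1.01, adjusted p = 0.0282), with 256 and 88.8 CPM against 108 and 99.6 CPM in atrial cells. The ventricular heavy chain gene myh7 had a less negative difference in ventricular cells (0.996, SE 0.18, adjusted p = 0.000827). In atrial cells it fell to 433 and 571 CPM at 72 hpf, against 2015 and 1663 CPM at 48 hpf, and in Erythrocytes it had 30.01 and 446 CPM against 7004 and 1038 CPM, the highest value being that of the 48 hpf sqet31Et library. With strict membership the myh7 interaction did not pass (0.538, adjusted p = 0.144).

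**Figure D5:**
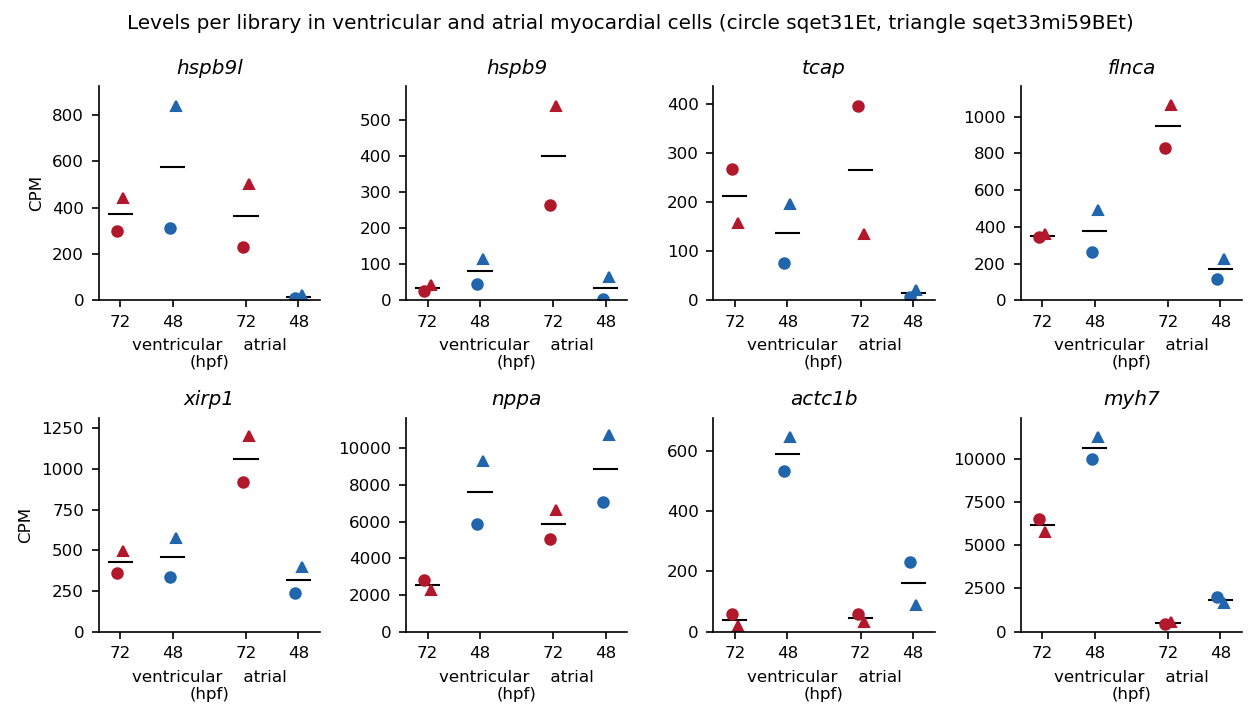
Levels (CPM) of 8 genes per library in ventricular cells (left pair) and atrial cells (right pair), each with 72 hpf left of 48 hpf, circles for sqet31Et, triangles for sqet33mi59BEt and lines for stage means. The genes hspb9l, hspb9, tcap, flnca and xirp1 separate the stages in atrial cells and overlap or nearly so in ventricular cells, while nppa, actc1b and myh7 are lower at 72 hpf on average in both.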

How the data were processed

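The labels describe hearts of 4 pools, 1 library each, prepared with the 10x Genomics 3′ kit. The authors aligned reads with Cell Ranger to GRCz11 with EGFP and mRFP added and clustered the cells in Seurat, per the labels and the study's methods. The authors deposited raw counts of UMIs, by gene and barcode. A deposited annotation adds, for each cell that passed their filters, its mitochondrial percent, its cluster name and other labels. The authors removed doublets, and no further call was added. Of 52177 distinct barcodes 270 occurred in more than 1 library.

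From these files UMIs were summed per library over ventricular, atrial, Erythrocyte and Endothelial cells and tested in edgeR 4.0.16 under R 4.3.3 (quasi-likelihood, TMM scaling, filterByExpr, Benjamini-Hochberg over all genes tested, threshold 0.05), with stage as the only term, or with library, cell group and their interaction with stage. DESeq2 1.42.0 was an alternative. Exact permutation tests used scipy 1.17.1. TMM factors were 0.930 and 1.228 at 72 hpf and 0.945 and 0.926 at 48 hpf. Without them the median of all log2 differences was 0.15. The line was used as a block only as an alternative, since the stages of a line came from different pools. The deviations of same-line libraries correlated at 0.0757 over 7982 genes. In data simulated from these libraries the test called 80 of 100 genes changed by a log2 of 2, and 9 of 100 changed by a log2 of 1.

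Named genes were set by a rule: the 12 largest rises and 12 largest falls among called genes outside the other cell type lists with a mean of at least 50 CPM and no overlap between stages, in each of 21 heart lists the 3 members with the smallest p and the 2 with the highest level, a set of heart genes and reporters, and for interactions the 5 with the smallest p in each direction. The members, the lists and the rule were chosen with earlier results of these data known. Symbols came from a name table covering 23608 of 25434 identifiers. Where copies share a human symbol, names were matched by the shares of cells in the study's supplementary tables or left as identifiers. The smallest two-sided p of the exact test is 0.333. No list was tested as a set.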

Additional observations from a re-analysis of the deposited data

Results flagged for a closer look

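The following genes are listed because the difference between stages in ventricular cells differed from that in another cell group by an interaction test at an adjusted p under 0.05 (edgeR). Against atrial cells, the log2 stage difference was lower in ventricular cells by -5.63 for hspb9, -5.30 for hspb9l, -3.76 for tcap, -2.70 for flnca and -1.99 for xirp1. All 5 kept their call without each library in turn, with strict membership and in cells thinned to 500 UMIs, where the value for hspb9l moved to -3.24. It was higher in ventricular cells by 1.67 for dap1b, 1.57 for ahnak, 1.45 for oaz2b, 1.40 for fabp3 and 0.996 for myh7.

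The rise of ahnak relative to the atrium was not called without the 72 hpf sqet33mi59BEt library (1.32, adjusted p = 0.0668) or in thinned cells (0.617, adjusted p = 0.606). The value for oaz2b was not called without the 48 hpf sqet31Et library (1.15, adjusted p = 0.079). The fatty acid binding protein gene fabp3 had 1120 and 793 CPM at 72 hpf and 1343 and 554 CPM at 48 hpf in ventricular cells, beside 298 and 440 CPM and 1190 and 729 CPM in atrial cells. Against Erythrocytes, the stage difference of ENSDARG00000057206 was lower in ventricular cells by -4.52 (adjusted p = 0.0217), a call lost with library totals (-4.15) and without the 72 hpf sqet31Et library (-4.19). Its Erythrocyte levels at 48 hpf rest on very few UMIs.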

How the results depend on the processing

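The ventricular counts of 254 higher and 65 lower genes became 143 higher in DESeq2, 445 and 178 with no filter on low counts, 39 lower with a stricter filter, 404 higher with gene-rich barcodes added, and 60 and 23 in cells thinned to 500 UMIs. Apart from leaving out a library and the line as a block, given below, the other settings left these counts within 1.5 times. The genes called were not always the same. With gene-rich barcodes added, 212 of the 404 higher and 34 of the 78 lower genes were also called in the main fit. In DESeq2 these were 132 of 143 higher and 37 of 51 lower genes. Leaving out 1 library gave 200 to 345 higher and 64 to 338 lower. With the line as a replicate block they were 373 and 130, and all 254 and 65 were among them. The labels number lines but do not pair pools. Atrial lower genes numbered 50, or 93 with library totals. For the chamber interaction, 53 higher became 82 with library totals, 34 with strict membership and 24 thinned (an alternative chosen after seeing the data), with 18 to 78 on leaving out a library, and 121 lower became 53 thinned, with 61 to 80. For Erythrocytes, 1 higher and 1 lower became 10 and 5 with strict membership, 0 lower with library totals, and 0 to 11 each on leaving out a library. The interaction with Endothelial cells gave 209 higher and 153 lower, and 68 to 98 and 55 to 111 on leaving out a library. The cell cycle difference was -3.89 in thinned cells. Leaving out a library moved it between 0.309 and 10.7, that of the ventricular share between 3.81 and 9.48 points, that of median UMIs between -1798 and -150, that of genes between -359.5 and -19.5, and that of mitochondrial percent between 3.62 and 11.5. The gcgb difference of 3.43, which was not called, ranged between -1.54 and 4.75 on leaving out a library, the lowest without 72 hpf sqet33mi59BEt. The cause of these shifts was not tested. Of 47 called genes that the rule named, 18 kept the call in every setting that tested them (14 settings, but 13 for fbln5, ENSDARG00000060350 and zgc:174904 and 11 for elnb) and 0 changed sign. hey2, marcksl1b, mcm2 and tpm1 lost it in 7 or 8 of 14. A change of log2 1 was rarely recovered at this size.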

Other observations

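Further called genes, named after their values were seen, belong to groups that the lists did not hold. The Notch-responsive repressor gene her15.1 had 306 and 154 CPM at 72 hpf and 35.4 and 34.7 CPM at 48 hpf in ventricular cells (log2 2.62, SE 0.44, adjusted p = 0.00481), and its atrial log2 difference was 5.26 (adjusted p = 0.000138). The ventricular call was lost in cells thinned to 500 UMIs (adjusted p = 0.0901) and with gene-rich barcodes added (adjusted p = 0.0841). The fatty acid binding protein gene fabp4a had 382 and 474 CPM at 72 hpf and 123 and 92.3 CPM at 48 hpf (log2 1.80, adjusted p = 0.00992, and 0.164 without the 48 hpf sqet33mi59BEt library), and the kinase gene sgk1 169 and 280 CPM against 49.99 and 74.9 CPM (log2 1.63, adjusted p = 0.0179). Neither was called in Erythrocytes (adjusted p = 0.998 and 0.993), and neither was called in the ventricle without the 48 hpf sqet31Et library (adjusted p = 0.0783 and 0.276). Among the falls, the smooth muscle gene tagln had 66.6 and 54.6 CPM against 154 and 186 CPM (log2 -1.61, adjusted p = 0.0196), and it was not called in cells thinned to 500 UMIs (adjusted p = 0.234).

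Some genes followed a library more than a stage. The globin gene hbae3 stood at 53.1 and 4763 CPM at 72 hpf and 137 and 374 CPM at 48 hpf in ventricular cells, and at 6362 and 23180 CPM and 4776 and 6789 CPM in Erythrocytes. The glucagon gene gcgb had 13.6 and 1075 CPM at 72 hpf and 59.6 and 14.99 CPM at 48 hpf, with 18.8% of the UMIs of the 72 hpf sqet33mi59BEt library in 1 cell. Both were highest in the 72 hpf sqet33mi59BEt library.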
